A study of Homo sapiens with 4 samples.

Results

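The genes described here are those of the ATF4 stress response and of amino acid transport, a module of 34 gene symbols. They were listed by name and role with earlier results of these data known, so shares of the module beside all genes are a description. All 34 were found among the 26364 genes of the count table, and 32 passed the filter of at least 10 counts in at least 2 libraries that left 14024 genes for testing. The other two were NUPR1, a stress-induced cofactor with 2, 7, 3 and 7 counts in the SW480 control, SW480 knockdown, SW620 control and SW620 knockdown libraries, and BCAT1, the cytosolic branched-chain aminotransferase with 1, 0, 0 and 1 counts. They were not tested.

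RNA was sequenced from 4 libraries of human colorectal cancer cell lines, SW480 and SW620, which were derived from the primary tumour and a lymph node metastasis of the same patient. Each line gave 1 control library and 1 SHMT2 knockdown library. SHMT2 is the mitochondrial serine hydroxymethyltransferase, which turns serine into glycine and a one-carbon unit. According to the study's methods, the knockdown used a short hairpin RNA switched on by doxycycline. The methods print a single hairpin sequence against SHMT2, while more than one hairpin is mentioned elsewhere in the paper, and which one these libraries carried is not stated. The paper describes the controls as cells with a control hairpin, the labels call them control only, and whether they received doxycycline is not given in the sources used here. The paper names both RNA sequencing and an Agilent array for this experiment, whereas the labels describe Illumina RNA libraries and the table holds whole-number counts with a different total in each library. Each line therefore stands for itself, with 1 library per line and condition.

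The integrated stress response begins when kinases that sense heme loss, misfolded protein or uncharged tRNA phosphorylate the initiation factor eIF2. Most translation then slows, while the mRNA of the transcription factor ATF4 is translated more. ATF4 binds the C/EBP-ATF response element (CARE) with C/EBP partners and switches on genes for amino acid uptake, amino acid synthesis and tRNA charging, together with feedback genes that end the response.

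The core of the CARE, TGATGNAA, was searched on both strands of RefSeq promoter windows of GRCh38.p14, which run from 250 bases before to 50 bases after each annotated start. RefSeq windows were matched for 28 of the 32 tested members, with 43 windows in all, while EIF2AK1, EIF4EBP1, GPT2 and PYCR1 were not matched. The core was present in 9 of the 28 members, and in 9 of 43 member windows (20.9%) against 1270 of all 35116 windows (3.62%) and 289 of the 15033 windows of tested genes (1.92%). Those 9 sites are shown because they are the places where the promoter windows of the module hold the letters that ATF4 is known to bind. The members were chosen for their known link to ATF4, and the share is a description. Capitals mark the core or, where it lies on the other strand, its reverse complement, and each sequence is read on the strand of its gene.
ASNS, chr7:97872449-97872496, minus strand: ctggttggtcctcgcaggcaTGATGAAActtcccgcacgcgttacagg
ATF3, chr1:212565196-212565243, plus strand: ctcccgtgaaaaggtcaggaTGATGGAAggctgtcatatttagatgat
CEBPG, chr19:33374051-33374098, plus strand: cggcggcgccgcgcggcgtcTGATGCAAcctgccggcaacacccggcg
CHAC1, chr15:40953242-40953289, plus strand: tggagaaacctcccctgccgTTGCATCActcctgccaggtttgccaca
JDP2, chr14:75427986-75428021, plus strand: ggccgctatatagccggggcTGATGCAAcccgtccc
PPP1R15B, chr1:204412017-204412064, minus strand: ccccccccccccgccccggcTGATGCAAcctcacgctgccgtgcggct
SLC38A1, chr12:46266502-46266531, minus strand: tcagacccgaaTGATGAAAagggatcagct
SLC3A2, chr11:62881725-62881748, plus strand: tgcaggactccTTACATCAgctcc
SLC7A1, chr13:29595663-29595692, minus strand: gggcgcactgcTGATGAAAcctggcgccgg
In ASNS the core began 68 bases before the start, and in CHAC1 209 bases before it. In SLC3A2 and SLC7A1 it lay after the start, at 37 and 7 bases. The other motif searched, the cAMP response element TGACGTCA, whose matches cannot overlap those of the CARE core, was found in 1 of 43 member windows (2.33%), that of PPP1R15A, between the 1.85% of all windows and the 2.67% of windows of tested genes. A match says only that the letters are present, and no binding was measured. Bases outside the windows were not searched, so a window without a core does not show that the gene lacks one.

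SHMT2 stood at 277 and 30.9 counts per 1000000 counts (CPM) in control and knockdown SW480 cells and at 688 and 47.6 CPM in SW620 cells, so that both knockdown libraries lay below both controls. Its log2 fold change was -3.54 ± 0.12 (SE, 2 libraries per condition) with an adjusted p of 1.06e-167 from the quasi-likelihood test of edgeR, in a model with terms for line and treatment. Total counts were 9590550 and 6432779 in control and knockdown SW480 and 5530129 and 13774288 in control and knockdown SW620, so that knockdown and control differed in depth by a ratio of 0.671 in SW480 cells and of 2.49 in SW620 cells. Of 10 colon epithelial markers 7 passed the filter, with a median log2 fold change of 0.00. KRT8 and KRT18, the most abundant of them, both fell with knockdown by 0.34 on the log2 scale (adjusted p of 0.0041 and 0.0054), and the other 5, CDX2, VIL1, EPCAM, KRT19 and CDH17, did not pass the test, with log2 fold changes from 0.29 in CDX2 to -0.43 in CDH17. The 10 markers summed to 6914 and 5270 CPM in control and knockdown SW480 and to 10390 and 9376 CPM in SW620. CDX1 had no count in any library, and VIL1 had 2 and 1 counts in SW480 against 2029 and 5105 in SW620. The 10 markers of blood, endothelial and stromal cells summed to between 27.2 and 35.1 CPM in each library, with 3 to 6 of them at 0, and CD3E was at 0 in all 4.

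Most of the module did not pass the edgeR test of the knockdown term, which averages the 2 lines and does not ask whether both respond. DDIT4 passed with a higher joint value, as 1 of 32 members at an adjusted p under 0.05, against 0.492% of all genes tested. Its rise came from SW620, with a log2 fold change of 0.87 there and -0.05 in SW480. None of the 32 passed as lower, against 1.17% of all genes. By DESeq2's Wald test none of the 32 was higher or lower, at the adjusted or the unadjusted threshold. At an unadjusted threshold of 0.05 in edgeR, 3 members were higher (DDIT4, ASNS and VLDLR) and 2 were lower (PPP1R15B and SLC7A1), where 4.15% and 4.91% of all genes met the same threshold. The value of VLDLR rested on SW620 alone. The median log2 fold change of the 32 was 0.12, beside 0.01 for all genes. Taken line by line, the median was -0.11 for SW480 and 0.17 for SW620, beside 0.00 in each line for all genes. Without VLDLR, which had 1 and 0 counts in SW480, these medians were -0.10 and 0.16.

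**Figure D1:**
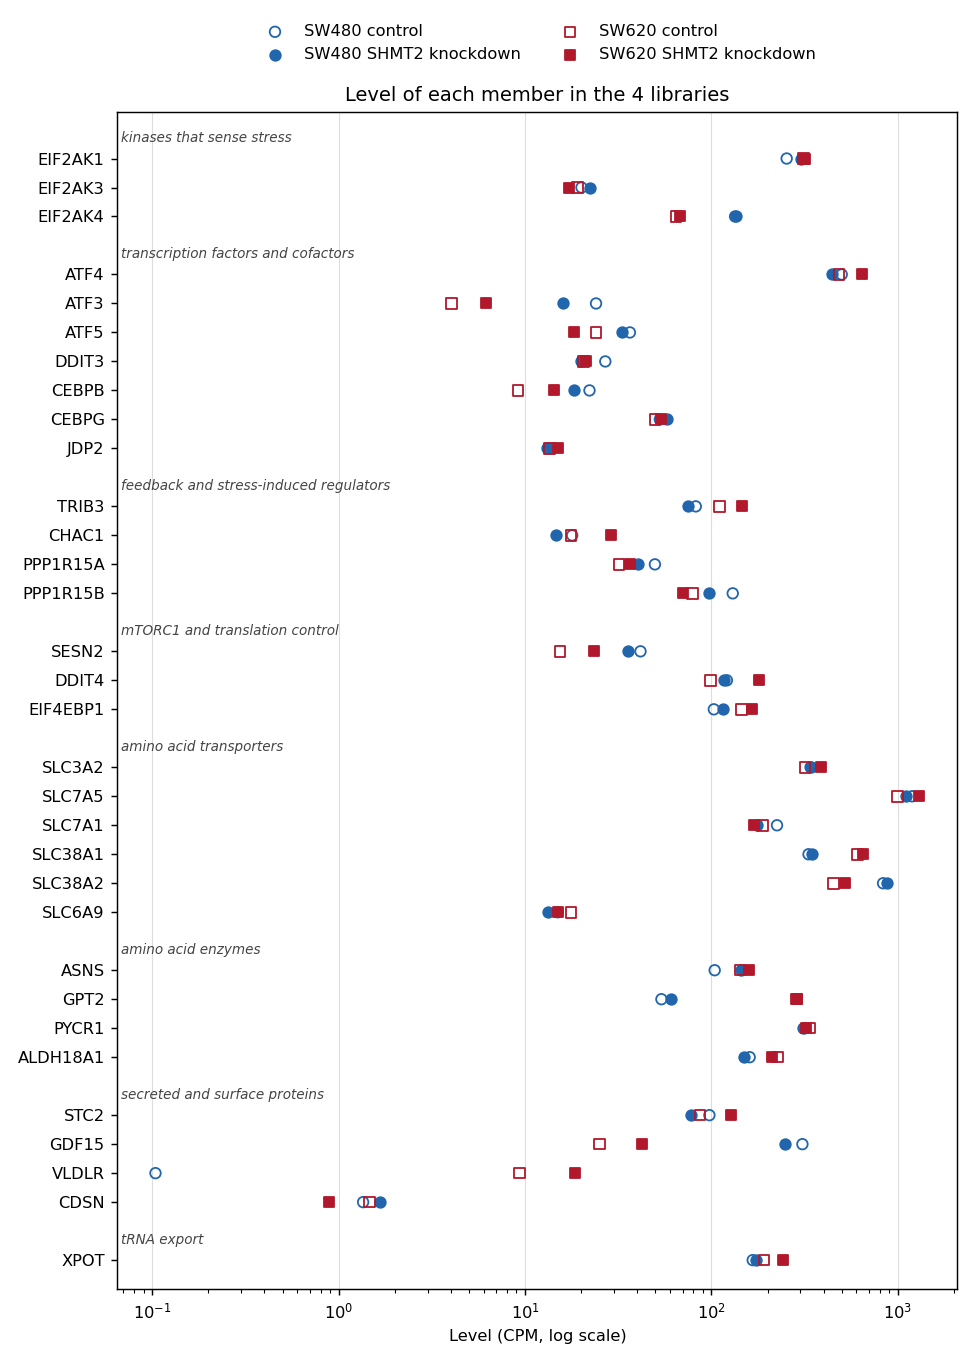
Level of each of the 32 tested members in CPM on a log axis, with control and SHMT2 knockdown libraries of SW480 and SW620 as separate points, 1 library each. SLC7A5 stands highest, from 999 to 1304 CPM, and VLDLR, which is at 0 in the SW480 knockdown library and cannot be drawn there on a log axis, and CDSN stand lowest.

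DDIT4 encodes REDD1, which restrains mTORC1 signalling when energy, oxygen or amino acids run short. It lies at chr10:72273920-72276036 on the plus strand in GENCODE 29 (GRCh38). The levels were 121 CPM in control and 117 CPM in knockdown SW480, and 98.6 CPM in control and 181 CPM in knockdown SW620. The SW620 knockdown library was the high one, while the other three libraries lay close together, so the groups overlapped. The log2 fold change was -0.05 in SW480 (counting interval -0.18 to 0.09) and 0.87 in SW620 (0.74 to 1.01), and the joint value was 0.41 ± 0.12 (SE) with an adjusted p of 0.0418. Within-line fold changes here carry no test, because each line has 1 library per condition, and their exact 95% Clopper-Pearson intervals cover counting error only. The DDIT4 call was lost in 5 of the alternative analyses, with adjusted p from 0.157 to 1.00 and log2 fold changes from 0.40 to 0.44, and without either SW620 library its value was -0.05. The 100 bases that end at its RefSeq start are shown because DDIT4 is the member that passed the test, and its window held neither motif, so there are no capitals.
DDIT4, chr10:72273824-72273923, plus strand: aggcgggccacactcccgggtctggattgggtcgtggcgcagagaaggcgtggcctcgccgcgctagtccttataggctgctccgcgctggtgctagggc

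SESN2, a leucine-binding sestrin that also restrains mTORC1, stood at 41.6 and 35.9 CPM in control and knockdown SW480 and at 15.4 and 23.6 CPM in SW620. Its SW620 knockdown library lay above the SW620 control but below both SW480 libraries, and its joint log2 fold change was 0.14 (adjusted p of 0.949). EIF4EBP1 encodes 4E-BP1, the repressor of cap-dependent translation that mTORC1 inactivates. It stood at 103 and 115 CPM in SW480 and at 145 and 165 CPM in SW620, and was higher with knockdown in both lines by 0.16 and 0.19 on the log2 scale without passing the test (adjusted p of 0.785).

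None of the kinases that start the response passed the test. EIF2AK1, the heme-regulated kinase that also relays mitochondrial stress, stood at 253 and 301 CPM in control and knockdown SW480 and at 312 and 320 CPM in SW620. It was higher with knockdown in SW480, by 0.25 on the log2 scale (counting interval 0.16 to 0.33), and its SW480 control was the low library of the 4. EIF2AK3, the endoplasmic reticulum kinase PERK, stood at 20.1 and 22.3 CPM in SW480 and at 19.1 and 17.2 CPM in SW620. EIF2AK4, the kinase GCN2 that binds uncharged tRNA, stood at 134 and 135 CPM in SW480 and at 64.7 and 68.2 CPM in SW620. None of the 3 met the unadjusted threshold either, with adjusted p between 0.829 and 0.999. These are transcript levels, and the kinases' activity and eIF2 phosphorylation were not measured.

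ATF4 itself, at chr22:39519695-39522685 on the plus strand, was the most abundant of the transcription factors. It stood at 500 CPM in control and 445 CPM in knockdown SW480 and at 483 CPM in control and 639 CPM in knockdown SW620. The controls of the 2 lines were close, the SW480 knockdown library was the lowest of the 4 and the SW620 knockdown library the highest. The log2 fold change was -0.17 in SW480 (counting interval -0.24 to -0.10) and 0.40 in SW620 (0.34 to 0.47), and the joint value of 0.12 ± 0.10 (SE) did not pass the test (adjusted p of 0.881). ATF4 is regulated mainly at translation, which transcript counts do not measure.

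DDIT3, which encodes the pro-apoptotic factor CHOP, stood at 27.0 and 20.1 CPM in control and knockdown SW480 and at 20.5 and 21.3 CPM in SW620. The SW480 control was the high library and the other three were level. Its log2 fold change was -0.42 in SW480 (counting interval -0.74 to -0.12) and 0.05 in SW620 (-0.27 to 0.38), with an adjusted p of 0.910 for both lines jointly. ATF3, a stress-induced repressor that ATF4 induces, stood at 24.1 and 16.0 CPM in SW480 and at 4.03 and 6.17 CPM in SW620. Both SW480 libraries lay above both SW620 libraries, and the log2 fold change was -0.58 in SW480 (counting interval -0.93 to -0.25) and 0.59 in SW620 (-0.08 to 1.36), which differ by 1.17, with an adjusted p of 0.959 for the joint value of -0.18.

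The remaining factors are C/EBP and ATF family proteins that pair with ATF4 or act beside it. CEBPB stood at 22.2 and 18.4 CPM in control and knockdown SW480 and at 9.17 and 14.3 CPM in SW620. CEBPG, a heterodimer partner of ATF4, stood at 52.9 and 57.5 CPM in SW480 and at 49.7 and 53.8 CPM in SW620. CEBPB was lower with knockdown in SW480 and higher in SW620, while CEBPG was higher by 0.12 on the log2 scale in each line. ATF5, linked to mitochondrial stress, stood at 36.5 and 33.2 CPM in SW480 and at 24.0 and 18.2 CPM in SW620. JDP2, a repressor that binds Jun, stood at 13.8 and 13.1 CPM in SW480 and at 13.6 and 15.1 CPM in SW620. None of the 7 factors met either threshold.

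The next group holds feedback genes, which restrain ATF4 output or restore translation, and CHAC1, a stress-induced gene. TRIB3, a pseudokinase that binds ATF4 and curbs it, stood at 82.5 and 75.0 CPM in control and knockdown SW480 and at 111 and 146 CPM in SW620. Its log2 fold change was -0.14 in SW480 (counting interval -0.30 to 0.03) and 0.40 in SW620 (0.26 to 0.53), with an adjusted p of 0.898 jointly. Both SW620 libraries lay above both SW480 libraries. CHAC1, which degrades glutathione, stood at 17.9 and 14.6 CPM in SW480 and at 17.6 and 29.0 CPM in SW620. The SW620 knockdown library was the high one and the other three lay close together, with a log2 fold change of -0.29 in SW480 (-0.67 to 0.08) and 0.71 in SW620 (0.39 to 1.06) and an adjusted p of 0.859 jointly.

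PPP1R15A and PPP1R15B are the inducible and the constitutive subunit that direct protein phosphatase 1 to eIF2. PPP1R15A stood at 49.8 and 40.3 CPM in control and knockdown SW480 and at 31.9 and 36.5 CPM in SW620. PPP1R15B stood at 130 and 97.3 CPM in SW480 and at 79.2 and 70.7 CPM in SW620. The constitutive subunit was lower with knockdown in both lines, by a log2 fold change of -0.42 in SW480 (counting interval -0.56 to -0.28) and -0.16 in SW620 (-0.33 to 0.00), and the joint value of -0.30 ± 0.13 (SE) met only the unadjusted threshold (adjusted p of 0.347). Its SW620 libraries both lay below its SW480 libraries.

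Among the transporters, SLC7A5 encodes LAT1, which imports leucine and other large neutral amino acids in exchange for glutamine, and SLC3A2 encodes the heavy chain that carries it to the membrane. SLC7A5, at chr16:87830023-87869488 on the minus strand, stood at 1192 CPM in control and 1103 CPM in knockdown SW480 and at 999 CPM in control and 1304 CPM in knockdown SW620. The SW620 control was the lowest library and the SW620 knockdown the highest. Its log2 fold change was -0.11 in SW480 (counting interval -0.15 to -0.07) and 0.38 in SW620 (0.34 to 0.43), with an adjusted p of 0.770 for the joint value of 0.14. SLC3A2 stood at 340 and 341 CPM in SW480 and at 317 and 388 CPM in SW620, so its SW480 libraries were level and its SW620 knockdown library was the highest of the 4.

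SLC38A2 and SLC38A1, sodium-coupled importers of glutamine and other neutral amino acids, divided by line. SLC38A2 stood at 834 and 880 CPM in control and knockdown SW480 and at 453 and 520 CPM in SW620. SLC38A1 stood at 332 and 347 CPM in SW480 and at 607 and 651 CPM in SW620. Both were higher with knockdown in each line, by log2 fold changes of 0.06 to 0.20, and neither met either threshold. SLC7A1, the importer of arginine and lysine, stood at 225 and 175 CPM in SW480 and at 188 and 169 CPM in SW620. Both of its knockdown libraries lay below both controls, with a log2 fold change of -0.36 in SW480 (counting interval -0.47 to -0.26) and -0.15 in SW620 (-0.26 to -0.04), and the joint value of -0.26 ± 0.11 (SE) met only the unadjusted threshold (adjusted p of 0.391). SLC6A9, the glycine importer GLYT1, stood at 15.0 and 13.3 CPM in SW480 and at 17.6 and 15.1 CPM in SW620, slightly lower with knockdown in each line without meeting a threshold.

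Per kilobase of annotated exon the transporters kept an order that ran from SLC7A5 to SLC6A9. The level of SLC7A5 was between 211 and 275 CPM per kilobase, that of SLC38A2 between 68.6 and 133, and that of SLC3A2 between 61.2 and 74.9. SLC38A1 stood at 33.1 and 34.7 CPM per kilobase in SW480 and at 60.6 and 65.0 in SW620. SLC7A1 stood between 22.0 and 29.2 and SLC6A9 between 2.57 and 3.41. SLC3A2 overlapped in range with SLC38A1, whose SW620 libraries reached its lower values, and with SLC38A2. For the factor ATF4 the same scale gave 177 to 254 CPM per kilobase.

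The enzymes of the module make non-essential amino acids. ASNS, asparagine synthetase, a textbook ATF4 target, lies at chr7:97852118-97872542 on the minus strand. It stood at 104 CPM in control and 144 CPM in knockdown SW480 and at 142 CPM in control and 159 CPM in knockdown SW620. Both knockdown libraries lay above both controls, and the SW480 control was the low library of the 4. The log2 fold change was 0.47 in SW480 (counting interval 0.34 to 0.60) and 0.16 in SW620 (0.04 to 0.28), and the joint value of 0.31 ± 0.12 (SE) met only the unadjusted threshold (adjusted p of 0.231).

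GPT2, the mitochondrial alanine aminotransferase, stood at 53.9 and 60.9 CPM in control and knockdown SW480 and at 285 and 290 CPM in SW620. ALDH18A1 and PYCR1 catalyse the first and the last step of proline synthesis from glutamate. ALDH18A1 stood at 160 and 150 CPM in SW480 and at 226 and 211 CPM in SW620, and PYCR1 at 318 and 309 CPM in SW480 and at 336 and 320 CPM in SW620. Both proline genes were lower with knockdown in each line by at most 0.10 on the log2 scale, and none of these 3 enzymes met either threshold.

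GDF15 and STC2 encode secreted proteins, a stress cytokine and a stanniocalcin glycoprotein. GDF15, at chr19:18374731-18389176 on the plus strand, stood at 308 CPM in control and 248 CPM in knockdown SW480 and at 25.1 CPM in control and 42.5 CPM in knockdown SW620. Both SW480 libraries lay far above both SW620 libraries, and the order of control and knockdown was opposite in the 2 lines. The log2 fold change was -0.31 in SW480 (counting interval -0.40 to -0.23) and 0.75 in SW620 (0.49 to 1.04), with an adjusted p of 0.933 for the joint value of 0.12. STC2, at chr5:173314713-173329503 on the minus strand, stood at 97.6 and 77.8 CPM in SW480 and at 86.9 and 127 CPM in SW620, with the SW620 knockdown library the highest and the SW480 knockdown library the lowest. Its log2 fold change was -0.33 in SW480 (-0.48 to -0.17) and 0.55 in SW620 (0.40 to 0.70), with an adjusted p of 0.939 jointly.

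VLDLR, the very low density lipoprotein receptor, had 1 and 0 counts in control and knockdown SW480 and 51 and 249 counts in SW620, or 9.35 and 18.5 CPM in SW620. A comparison with SW480 counts this low says nothing of a response in that line, and its 0 allows up to 3 counts. In SW620 the log2 ratio of the counts was 0.98 (counting interval 0.55 to 1.45), and the joint adjusted p was 0.243. CDSN, corneodesmosin, had 13 and 11 counts in SW480 and 8 and 12 counts in SW620, and no direction was detectable at this depth. XPOT, which exports tRNA from the nucleus, stood at 167 and 174 CPM in control and knockdown SW480 and at 192 and 242 CPM in SW620, with an adjusted p of 0.651.

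**Figure D2:**
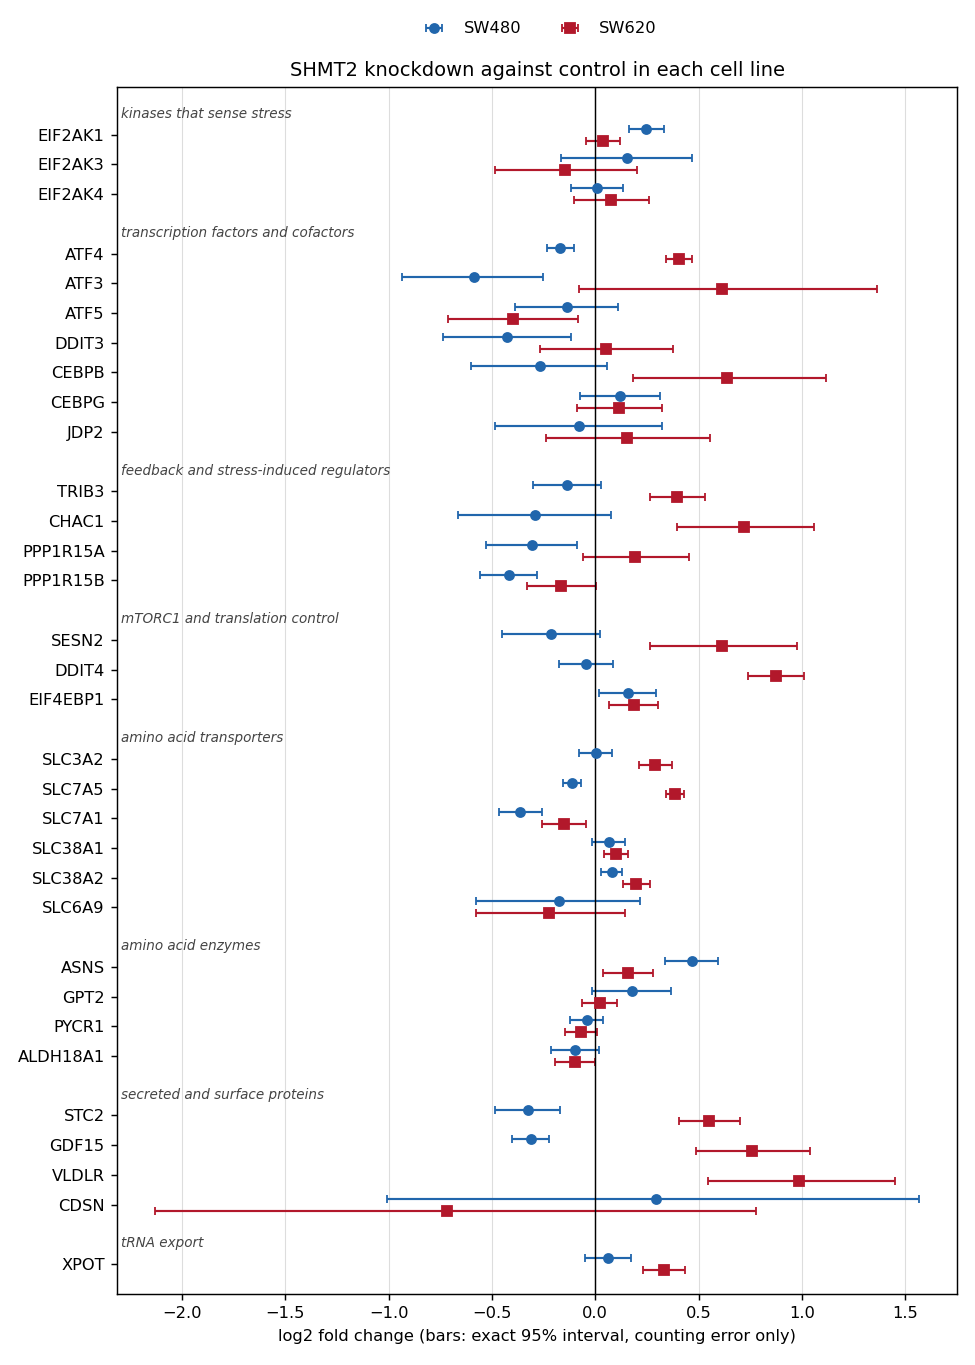
Log2 ratio of SHMT2 knockdown to control for each member, in SW480 and in SW620 apart, taken from counts scaled by library size with no added count. Bars are exact 95% counting intervals, 1 library stands behind each arm, and VLDLR has no point in SW480, where it had 1 and 0 counts. ATF4, SLC7A5, STC2 and GDF15 lie below 0 in SW480 and above 0 in SW620 with both intervals clear of 0.

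The lines were then compared in their response, gene by gene. The counting intervals of the 2 lines did not overlap, with SW620 higher, for 15 of 32 members (46.9%), where 7.64% of all genes tested showed the same. The 15 were ATF4, ATF3, CEBPB, TRIB3, CHAC1, PPP1R15A, SESN2, DDIT4, SLC3A2, SLC7A5, SLC7A1, SLC38A2, STC2, GDF15 and XPOT. SLC7A1 was lower in both lines and less so in SW620, with intervals that nearly touched, and SLC38A2 was higher in both and more so in SW620. All 15 were among the 30 members with a mean of at least 10 CPM, and the share of all genes at that level was 10.2%. The reverse, SW480 higher, held for EIF2AK1 and ASNS, 2 members (6.25%), against 4.73% of all genes. Narrow intervals come with high counts, and they leave out the spread between cultures, so that with 1 library per arm the difference between the lines was not tested. The members were chosen with earlier results of these data known, so their shares beside all genes are a description.

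The direction within each line was read next. SW480 was lower and SW620 higher, with both intervals clear of no change, for ATF4, SLC7A5, STC2 and GDF15, or 4 of 32 members, against 2.49% of all genes, and no member showed the reverse. By sign of the fold change alone, 14 members (43.8%) were lower in SW480 and higher in SW620, against 22.5% of all genes. A further 10 of 32 were higher in both lines and 6 were lower in both, beside 27.0% and 24.7% of all genes. EIF2AK3 and CDSN were the 2 members higher in SW480 and lower in SW620. The SW620 interval lay above no change for 16 of 32 members, against 13.4% of all genes, and below it for 2, against 12.2%. The SW480 interval lay below no change for 9 of 32, against 15.8% of all genes, and above it for 4, against 14.0%.

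**Figure D3:**
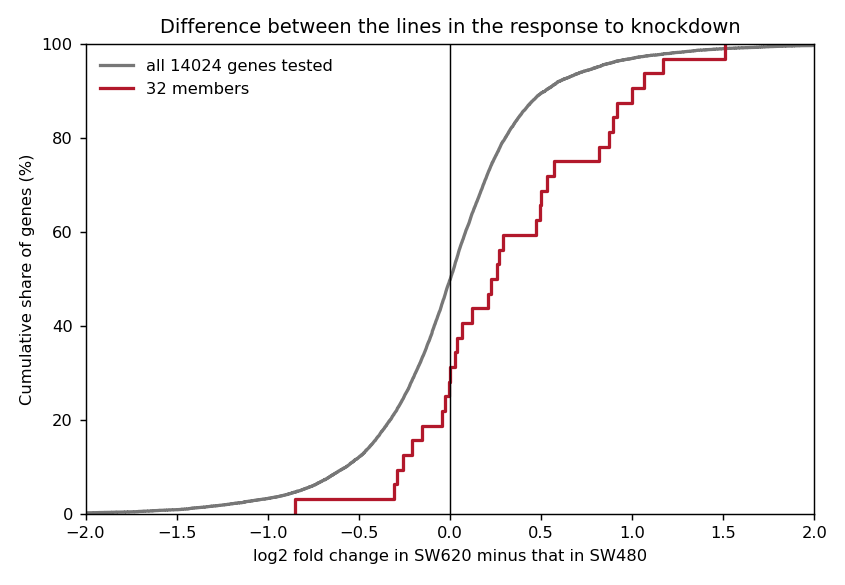
Cumulative percent of genes (vertical axis) against the log2 fold change in SW620 minus that in SW480 (horizontal axis), for the 32 members and for all 14024 genes tested. The curve of the members lies to the right of that of all genes, with a median difference of 0.24 against 0.00, and VLDLR, which rests on 1 and 0 counts in SW480, is included.

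The knockdown library was the shallower of its pair in SW480 and the deeper in SW620, so that with 1 library per arm depth and line cannot be told apart. With all 4 libraries thinned to the smallest total, 13 members had non-overlapping intervals with SW620 higher, against 6.69% of all genes, and all 13 were among the 15, while PPP1R15A and SLC7A1 were lost. Thinning left ASNS alone with SW480 higher, against 3.17% of all genes, and EIF2AK1 was lost. The thinning was a single random draw, and which members near the border are lost could differ in another draw. At full depth, 4 of 9 members with a CARE core in the window had non-overlapping intervals with SW620 higher. The same held for 11 of 19 members without a core in the window, against 7.64% of all genes. SLC7A1, lost on thinning, was among the 4, and PPP1R15A, also lost, was among the 11. Median log2 fold changes of members with and without a core were -0.08 and -0.14 for SW480, and 0.15 and 0.33 for SW620.

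The cell lines themselves differed in level for 20 of 32 members, with knockdown and control as a term in the same edgeR model. At an adjusted p under 0.05, 11 members were higher in SW620, where 32.3% of all genes were, and 9 were lower in SW620, where 31.3% of all genes were. The 11 included VLDLR, which passed the count filter through its SW620 libraries alone. The 11 became 6 by DESeq2's Wald test and 7 without the treatment term. The joint share of 62.5% was near the 63.6% of all genes. GDF15 stood 8.07-fold higher in SW480 (log2 difference -3.01 for SW620 against SW480, adjusted p of 8.29e-114), and ATF3 3.63-fold higher there (adjusted p of 2.19e-13). GPT2 stood 5.01-fold higher in SW620 (adjusted p of 1.27e-76). In each of these the 2 libraries of one line lay wholly above the 2 of the other.

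Lower in SW620 were also EIF2AK4, SESN2, SLC38A2, CEBPB, ATF5, PPP1R15B and PPP1R15A, with log2 differences from -1.01 in EIF2AK4 to -0.38 in PPP1R15A. Higher in SW620 were also SLC38A1, TRIB3, EIF4EBP1, CHAC1, ALDH18A1, XPOT, ASNS, STC2 and ATF4, from 0.89 in SLC38A1 to 0.24 in ATF4 (adjusted p of 0.0290). For STC2, CHAC1, ASNS and ATF4 the libraries of the 2 lines overlapped, since the knockdown and control values given above crossed. VLDLR was the eleventh member called higher in SW620, with 51 against 1 counts in the control libraries, a ratio of 89.8 with a counting interval of 15.4 to 3616. Since VLDLR passed the filter only through SW620, this call was largely set by the filter. In the knockdown libraries its ratio was 40.9 with the 0 of SW480 set to 3 counts in that library, a value without a counting interval. The 2 lines share a donor, and how they were cultured relative to each other is not given in the sources used here.

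**Figure D4:**
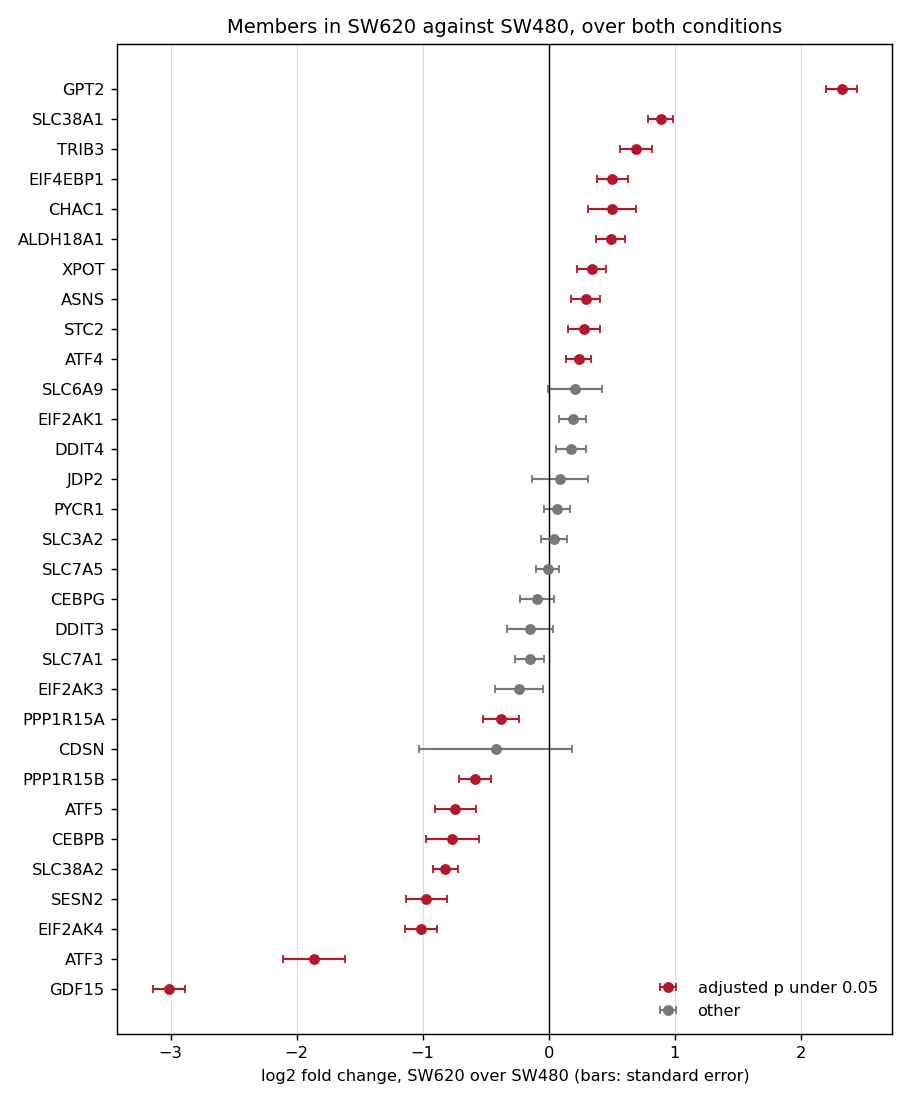
Log2 difference in level between SW620 and SW480 for 31 members, ordered by value. Bars are 1 SE implied by the quasi-likelihood F test of edgeR on 4 libraries, and red points have an adjusted p under 0.05. GDF15 at -3.01 and GPT2 at 2.33 mark the ends, and VLDLR is left out because its fitted value rests on 1 and 0 counts in SW480.

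The wider pathway was read from lists of genes outside the module. Of 28 other ATF4 targets, 27 were tested, and PHGDH, the first enzyme of serine synthesis, rose as 1 of 27, while none fell, at an adjusted p under 0.05 (0.492% and 1.17% of all genes). PHGDH stood at 108 and 161 CPM in control and knockdown SW480 and at 97.4 and 118 CPM in SW620, so both knockdown libraries lay above both controls, and its joint log2 fold change was 0.43 (adjusted p of 0.0333). The alternative analyses were read for the members only, so how far the PHGDH call depends on the processing was not tested. At the unadjusted threshold 6 of the 27 were higher and 1 was lower (4.15% and 4.91% of all genes). Their medians were 0.09 in SW480 and 0.22 in SW620, and 8 had non-overlapping intervals with SW620 higher and 2 with SW480 higher (7.64% and 4.73% of all genes).

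Of 24 other amino acid transporters, 17 were tested and none passed the adjusted threshold by edgeR. At the unadjusted threshold 3 were higher (SLC1A1, SLC36A1 and SLC43A2) and none was lower, against 4.15% and 4.91% of all genes. SLC1A1 had only 3 and 7 counts in control and knockdown SW620, so its value came from SW480. Medians of the 17 were 0.12 in SW480 and 0.28 in SW620. The intervals did not overlap for 3 of 17 with SW620 higher, against 7.64% of all genes. With SW480 higher they did not overlap for 1 of 17, near the 4.73% of all genes. Of 16 other translation initiation genes of the response, all tested, none met either threshold in either direction. Their medians were -0.06 in SW480 and 0.00 in SW620, and 4 of 16 had non-overlapping intervals with SW620 higher, against 7.64% of all genes, and none with SW480 higher.

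Whether reads of neighbouring genes were counted with some members was not tested. Strand use is not given in the sources used here, and 12 members share exon positions with a gene on the opposite strand in GENCODE 29, among them DDIT4 with DDIT4-AS1, DDIT3 with MARS and MBD6, CEBPB with CEBPB-AS1 and VLDLR with VLDLR-AS1. On the same strand 4 members share exon positions with another gene, namely ATF5 with MIR4751, DDIT3 with AC022506.1, ASNS with AC079781.5 and PYCR1 with MYADML2. Annotated pseudogenes exist for 5 members, ATF4, EIF4EBP1, SLC7A5, ASNS and XPOT, so reads may have been divided among copies there.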

How the data were processed

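Gene counts deposited by the authors were used as whole, unnormalized counts of RNA-seq reads per gene symbol for 4 libraries. The submitters' processing notes name Bowtie 0.12.2 and hg18 without a role, and the counting program and annotation are not given in the sources used here. Gene positions and exon lengths came from GENCODE 29 (GRCh38). Dates stood in place of 28 symbols, none of them a member.

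Genes that reached 10 counts in 2 or more libraries were fitted in edgeR 4.0.16 (R 4.3.3) with TMM scaling and the quasi-likelihood test, with cell line and treatment as terms and 1 residual degree of freedom, and p-values were adjusted by the Benjamini-Hochberg method over all 14024 genes. Each SE is the one implied by that test, the absolute log2 fold change divided by the square root of the F statistic. Levels are CPM, counts per 1000000 of the TMM-scaled library total. Within-line log2 fold changes used a prior count of 2 and have no test. Counting intervals are exact 95% Clopper-Pearson intervals on the pair of counts and cover counting error only, since 1 library stands behind each arm. They treat each read as a separate molecule, which was not checked. The cell line was the block: the deviations of the 2 SW480 libraries from their condition means correlated at 0.961, and the common dispersion was 0.00819 with the line as a term and 0.561 without. No source says whether the libraries came from separate cultures, so p-values measure the spread between these libraries. With 1 residual degree of freedom, that spread was estimated largely across genes. A gene's own disagreement between the lines therefore enters its SE only weakly. The SE of the joint value was 0.12 for DDIT4, at -0.05 in SW480 and 0.87 in SW620. It was also 0.12 for EIF4EBP1, whose values in the 2 lines were nearly alike. Scripts were tested on simulated counts.

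Alternatives were DESeq2 1.42.0 with its size factors and its Wald test, other count filters (none, or 50 counts in 2 libraries), a prior count of 0.5, thinned libraries, fits without cell line or treatment, and each library left out. The share of genes with a mean of at least 10 CPM was added after seeing the data. All members at the unadjusted threshold, ATF4, DDIT3, ASNS, TRIB3, CHAC1 and the 3 members with the largest difference between the lines (VLDLR, ATF3 and GDF15) were given in full, the other tested members by their levels, and genes of the other lists at the adjusted threshold by name. SLC7A5 and STC2 were chosen for full values after these were seen. Members and lists were chosen with earlier results of these data known.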

Additional observations from a re-analysis of the deposited data

Results flagged for a closer look

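ATF4, SLC7A5, STC2 and GDF15 moved in opposite directions in the 2 cell lines, lower with SHMT2 knockdown in SW480 and higher in SW620, and the counting intervals of both lines lay clear of no change. The log2 fold change in SW620 exceeded that in SW480 by 0.57 for ATF4, by 0.50 for SLC7A5, by 0.875 for STC2 and by 1.07 for GDF15. Each line had 1 library per condition, so these differences were not tested.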

How the results depend on the processing

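The call of DDIT4 was the result that depended most on the processing. The number of members that rose at an adjusted p under 0.05 was 1 and remained 1 with DESeq2's size factors, but was 0 with no filter on low counts, with at least 50 counts in 2 libraries, with DESeq2's Wald test, with libraries thinned to the smallest total and with no replicate block, where the cell line was left out as a pairing of the libraries. At an unadjusted threshold of 0.05 the number of higher members, 3, became 0 with DESeq2's Wald test and 0 without the block, and the number of lower members, 2, became 0 with DESeq2's Wald test, 1 with thinned libraries and 0 without the block. Without the block the log2 fold change of GDF15 reversed from 0.12 to -0.20. Members higher in SW620 numbered 11, but 6 by DESeq2's Wald test and 7 without the treatment term, and with thinned libraries the members whose intervals did not overlap with SW480 higher numbered 1 in place of 2. Leaving out 1 library left no residual degrees of freedom and gave values with no test: the median log2 fold change of the members ranged from -0.11 (without either SW620 library) to 0.17 (without either SW480 library), and that of DDIT4 from -0.045 to 0.87. The cause of these shifts was not tested, except that a left-out library leaves the response of 1 line. With 1 library per line and condition, no response of a single line could be tested, and CDSN, NUPR1 and BCAT1, together with VLDLR in SW480, had too few counts for a direction to be read.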
